A study of Mus musculus with 44 samples.

Results

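The cytoplasmic ribosomal protein genes were followed in HPC7 cells, a mouse blood progenitor line grown with stem cell factor (100 ng/ml mSCF). They were taken from the table of read counts around transcription start sites as the gene IDs whose mouse symbol begins with Rpl or Rps and a digit, or is Rpsa, Rplp0, Rplp1 or Rplp2. Pseudogene symbols ending in -ps (33) and kinase symbols of the Rps6k kind (10) were left out. This gave 91 genes of 27095 gene IDs, and all 91 windows had enough reads to be tested in every comparison. Of the 91, 77 are core genes (46 of the large and 31 of the small subunit), 12 are paralogues or retrocopies (Rpl10l, Rpl22l1, Rpl32l, Rpl36al, Rpl37rt, Rpl39l, Rpl3l, Rpl6l, Rpl7l1, Rps27l, Rps27rt and Rps4l), and 2 carry a ribosomal protein's name without being one (Rps19bp1 and Rps23rg1). RefSeq annotates Rpl6l and Rps4l as pseudogenes.

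All cells carried an MSCV-IRES-GFP retrovirus, were sorted for GFP 1 week after transduction and were grown further before fixation. The virus held no insert (empty vector), wild-type Snai1, or a Snai1 whose residue 5 was changed from phenylalanine to alanine, which weakens its binding to the histone demethylase Lsd1. Expression came from a viral promoter in one cell line, so each construct is a transduced pool of that line. Chromatin immunoprecipitation gave 3 H3K4me2 and 3 H3K4me1 libraries per construct, 2 IgG libraries from wild-type cells, and 12 Snai1 and 12 input libraries labelled as technical replicates, from which 1 deposited list of Snai1 peaks per construct is used here.

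Ribosomal proteins are needed in near-equal amounts, since each ribosome holds 1 of nearly every one of them. Their genes are scattered over the chromosomes and have strong, mostly CpG-rich promoters. Transcripts begin in a run of pyrimidines, the 5′ terminal oligopyrimidine tract, through which their translation follows growth signals. Monomethylation and dimethylation of lysine 4 of histone H3 mark chromatin at and around active starts and enhancers, and Lsd1 removes both. In blood, losing 1 copy of several of these genes (Rps19, Rpl5, Rpl11 and others) causes Diamond-Blackfan anaemia, and Rps14 lies in the segment lost in the 5q- syndrome.

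Start-site sequences show what the promoters share. A promoter sequence (250 bases before to 50 after the start, RefSeq, GRCm38.p6) was found for 69 members, 57 of them core. The 4 starts printed next serve as examples of tracts of different length, and they are not the longest (Rpl7a has one of 21 bases). Capitals mark the longest run of pyrimidines touching the 20 bases on either side of the start, and the annotated start opens the last 20 letters.
Rpl35: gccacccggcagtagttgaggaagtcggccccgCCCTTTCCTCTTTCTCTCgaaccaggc
Rpl15: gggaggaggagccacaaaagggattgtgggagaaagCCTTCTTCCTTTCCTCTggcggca
Rps6: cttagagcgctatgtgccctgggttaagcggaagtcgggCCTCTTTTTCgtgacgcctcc
Rpl28: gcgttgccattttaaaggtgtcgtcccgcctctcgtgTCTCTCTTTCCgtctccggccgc
They lie at chr2:39005112-39005171 (minus strand), chr14:18270967-18271026 (minus), chr4:86857348-86857407 (minus) and chr7:4792925-4792984 (plus). The runs are 18, 17, 10 and 11 bases long. A run of at least 7 pyrimidines that starts with C was present near the start in 57.9% of core genes, in 24.4% of all 18435 genes with a promoter sequence and in 26.1% of the mitochondrial ribosomal protein genes, which serve the separate ribosome of the mitochondrion. The core promoters held a median of 22 CpG pairs, against 13 over all genes, at nearly the same GC content (57.0% against 56.3%). On either strand, the letters CCGGAAG, the core bound by ETS factors, stood in 42.1% of core promoters and 12.7% of all, and AAGATGG, the YY1 core, in 15.8% and 7.19%. GGGCGG, the GC box, stood in 61.4% and 48.8%, and TATAAA, the TATA box, in 10.5% and 14.5%. CAGGTG, the E-box that Snai1 prefers, stood in 10.5% of core promoters against 22.2% of all. The mitochondrial ribosomal protein promoters held a median of 21 CpG pairs. CCGGAAG stood in 37.7% of them, AAGATGG in 18.8%, GGGCGG in 49.3%, TATAAA in 7.25% and CAGGTG in 14.5%. The CpG, CCGGAAG and AAGATGG values were therefore not particular to the core genes. A match says only that the letters are there.

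The labelled cell type was checked through marker windows. In wild-type Snai1 cells, the only ones with IgG, H3K4me2 was higher than IgG at 10 of 12 blood progenitor genes (Kit, Gata2, Runx1 and others). It was higher at 0 of 6 T cell, 0 of 5 B cell, 0 of 6 fibroblast and 0 of 5 epithelial markers. Over all windows 36.1% were higher. The H3K4me2 libraries held 8694515 to 18199945 counts in windows, H3K4me1 4042976 to 8813537 and IgG 2714255 to 3355479. Replicate 1 stood apart in every construct. Its counts differed from those of replicates 2 and 3 with 9.49 to 17.71 times the counting variance in H3K4me1 and 10.16 to 15.11 times in H3K4me2, whereas replicates 2 and 3 of a construct differed from each other with 0.98 to 1.28 and 1.23 to 2.3 times. The replicate 1 libraries of different constructs were much closer to each other, with 2.33 to 4.74 times in H3K4me1 and 2.18 to 3.31 times in H3K4me2. Among replicates 2 and 3, libraries of different constructs differed with 5.14 to 8.77 and 7.21 to 12.5 times. Replicate 1 may therefore be a batch shared by the constructs, although the labels name none. The main fits hold the construct alone, so the distance of replicate 1 is part of their spread. Results are also given within replicate 1 and with a batch term. The labels do not say whether the replicates are separate transductions or cultures, so p-values measure only the spread between these samples, which may be technical. The second and the third empty-vector H3K4me1 libraries could not be distinguished beyond sampling noise and count as 1 sample, so n = 2 there.

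The core genes were marked by H3K4me2 without exception, and 7 other members, 6 of the 12 extra copies and Rps23rg1, were not. In wild-type cells, H3K4me2 was higher than IgG at 84 of 91 windows, where 36.1% of all windows were higher, and lower at 7, where 55.7% of all were lower (edgeR's quasi-likelihood test on column totals, adjusted p under 0.05, 3 against 2 libraries). All 77 core windows were among the 84. Their median log2 fold change over IgG was 1.24 (range 0.55 to 2.94), against -1.92 over all windows, and large and small subunit genes differed little (medians 1.27 and 1.22). The fold is between shares of a library, since IgG reads spread over the whole genome, and a mark in fewer cells cannot be told apart from less mark per cell. Fau and Rack1, ribosomal proteins outside the naming pattern, were also higher (log2 0.93 and 1.42).

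**Figure D1:**
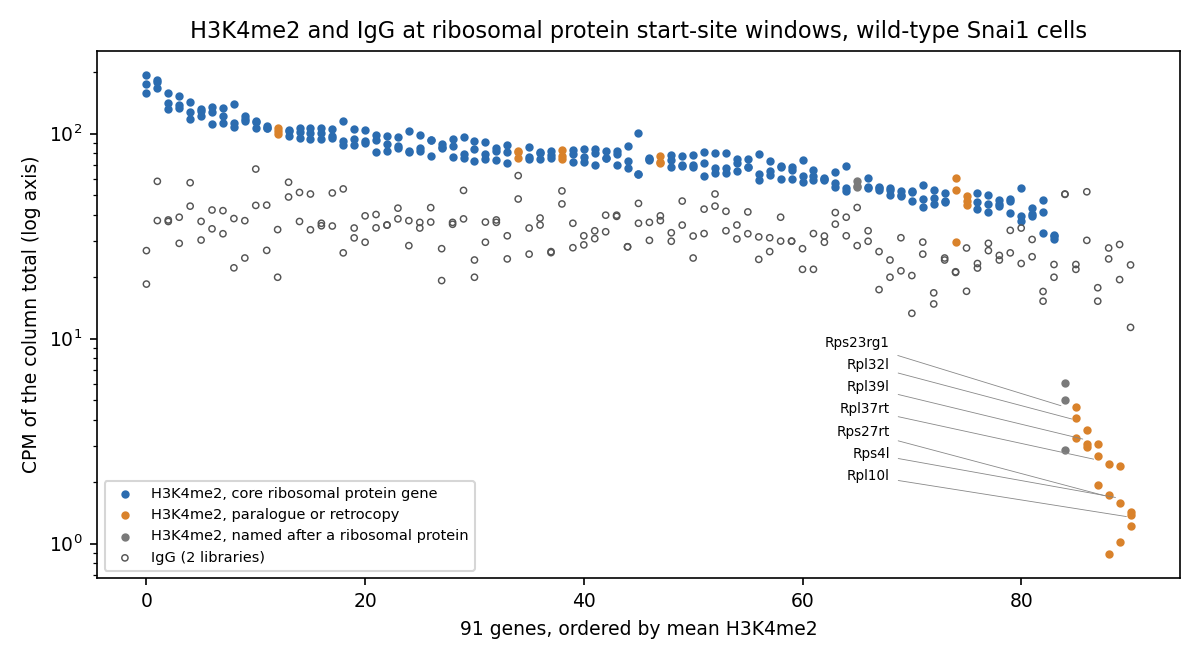
H3K4me2 (filled, 3 libraries) and IgG (open, 2 libraries) at the 91 windows in wild-type Snai1 cells, as CPM of the column total on a log axis, with genes ordered by mean H3K4me2. Core genes average 31.39 to 175.51 CPM, and the 7 unmarked members fall to between 1.34 and 4.64.

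Levels varied within the core. Each count covers a window around a start that the deposited table names as 5 kb, whether in all or on each side not being given in the sources used here, so it reads the mark around a start and not transcription. In empty-vector cells the highest H3K4me2 on the TMM-scaled library size stood at Rpl7, followed by Rpl35 and Rpl18, and Rpl8 was also among the 5 highest. Rpl7, a large subunit protein, gave 179, 142 and 136 CPM in replicates 1, 2 and 3, higher than 98.5% of all windows. Rpl35, near the exit of the peptide tunnel, gave 159, 142 and 141 CPM. At Rpl18 the 3 values were 145, 143 and 148 CPM, the steadiest of these together with Rpl8. The lowest core gene was Rpl41, whose product is the smallest ribosomal protein, with 33.99, 25.48 and 22.5 CPM, and next came Rps29, a zinc-binding protein of the small subunit, with 46.43, 24.6 and 22.28 CPM. In both low genes replicate 1 lay above replicates 2 and 3. Of the 91 windows 70 had another gene's end within 5 kb, so reads may come from a neighbour's start. Rps2 and Rpl3l, for example, both have Ndufb10 as a neighbour.

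Genes tied to anaemia and leukaemia sat inside the same range of TMM-scaled CPM. Rps24 (97.03 to 109.5 CPM in the 3 empty-vector libraries) and Rps19 (87.99 to 113.92 CPM), the gene most often hit in Diamond-Blackfan anaemia, had the highest means of the genes described here. Rps14 gave 76.44 to 90.41 CPM. Rpl5 and Rpl11, which together with 5S RNA hold back the p53 ligase Mdm2, gave 55.3 to 58.95 and 55.42 to 69.87 CPM. Rps26 gave 47.43 to 53.6 CPM and Rpl35a 75.01 to 76.16. Rpl22 and Rpl10, mutated in T cell leukaemia, gave 74.57 to 77.92 and 34.2 to 47.45 CPM. Each of these genes was higher than IgG, from log2 0.58 ± 0.15 (SE) at Rpl22 to 1.48 ± 0.14 at Rps24 (adjusted p = 0.00214 and 5.79e-07, edgeR).

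The unmarked members were Rpl10l, Rps4l, Rps27rt, Rpl37rt, Rpl32l and Rpl39l, with Rps23rg1. Rpl10l, an intronless copy of Rpl10 that is used in the testis, gave 1.43, 1.22 and 1.38 CPM of H3K4me2 (column totals) in wild-type cells against 11.33 and 22.85 CPM of IgG (log2 -3.63 ± 0.38, adjusted p = 1.39e-06). Its parent Rpl10 gave 47.26, 32.58 and 41.28 CPM against 15.21 and 16.96. At each gene the H3K4me2 and IgG libraries do not overlap, and they lie in opposite orders. The olfactory and vomeronasal receptor genes, 1482 windows that are silent in blood, had a median of 1.73 to 2.07 CPM in the empty-vector H3K4me2 libraries. Rpl32l, Rps27rt and Rps4l lie inside the genes Map7, Osbpl10 and Tmtc1.

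Rps27rt matches its parent after the start and not before it. It is printed beside Rps27, a zinc-binding small subunit protein, because it is the 1 pair of the 8 compared whose starts match. Capitals mark the longest run of letters that both hold, 29 bases, and the annotated start opens the last 30 letters.
Rps27: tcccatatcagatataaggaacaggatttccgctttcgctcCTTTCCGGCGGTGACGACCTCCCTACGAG
Rps27rt: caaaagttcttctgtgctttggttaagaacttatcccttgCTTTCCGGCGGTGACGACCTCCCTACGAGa
They lie at chr3:90213619-90213688 and chr9:114982710-114982779, both on the minus strand. After the start 30 of 30 bases were identical, and before it 11 of 30, at the best of ungapped shifts of up to 10 bases. The other 7 pairs had 11 to 16 identical bases of 30 before and 13 to 15 after. H3K4me2 at Rps27 was 47.38, 44.09 and 45.32 CPM in wild-type cells, and at Rps27rt 2.45, 1.73 and 0.89, against 24.45 and 27.64 CPM of IgG at the copy (log2 -3.88 ± 0.37, adjusted p = 5.61e-07, edgeR).

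The remaining 6 paralogues were also higher than IgG in H3K4me2. Rpl36al, an autosomal, intronless partner of the X-linked Rpl36a, had log2 1.91 ± 0.19 over IgG, Rpl22l1, which can stand in for Rpl22, 1.09 ± 0.21, Rps27l, a p53 target, 0.94 ± 0.13, and Rpl7l1 0.68 ± 0.13 (adjusted p 8.08e-07 to 0.000324, edgeR). Rpl3l, the muscle form of Rpl3, had 0.53 ± 0.14 (adjusted p = 0.00336), and the starts of its neighbours Msrb1 and Ndufb10 lie within 5 kb. Rpl6l, a pseudogene with no other gene end within 5 kb, had 1.17 ± 0.29 (adjusted p = 0.00179).

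H3K4me1 was weaker and less even. It was higher than IgG at 57 of 91 windows, 54 of them core, where 27.7% of all were higher, and lower at 6, none of them core, where 48.4% of all were lower. The core median was log2 0.68 against -0.44 over all windows. The 23 core windows that did not pass include Rpl5, Rpl11, Rpl22, Rps14 and Rps6, the S6 kinase substrate. Of the unmarked copies Rpl32l alone was not called lower (-0.58 ± 0.27, adjusted p = 0.072).

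In empty-vector cells the balance leaned to H3K4me2. The share of reads was higher in H3K4me2 than in H3K4me1 at 58 of 91 windows, 54 core, where 21.1% of all were higher, and lower at 7, where 34% of all were lower (edgeR, column totals). The core median was log2 0.64 against -0.41 over all windows. The difference was largest at Rpl39, a very short protein of the exit tunnel, with 50.01, 42.2 and 44.55 CPM of H3K4me2 and 17.66, 17.71 and 17.46 of H3K4me1 (1.37 ± 0.17, adjusted p = 5.3e-06). Rps23 (1.26 ± 0.16) and Rps12 (1.2 ± 0.14) followed. Of the core windows, 3 passed in the direction of H3K4me1, namely Rps10 (-0.46 ± 0.15), Rpl6 (-0.34 ± 0.14) and Rps15a (-0.32 ± 0.12), with adjusted p of 0.0145, 0.047 and 0.0331. Rpl32l (-1.77 ± 0.35), Rps23rg1 (-1.58 ± 0.3) and Rpl6l (-1.43 ± 0.28) leaned furthest that way. At Rpl6l H3K4me1 was 105.12, 114.19 and 110.82 CPM and H3K4me2 23.31, 50.14 and 48.69, so the marks do not overlap and replicate 1 is the lowest in H3K4me2.

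**Figure D2:**
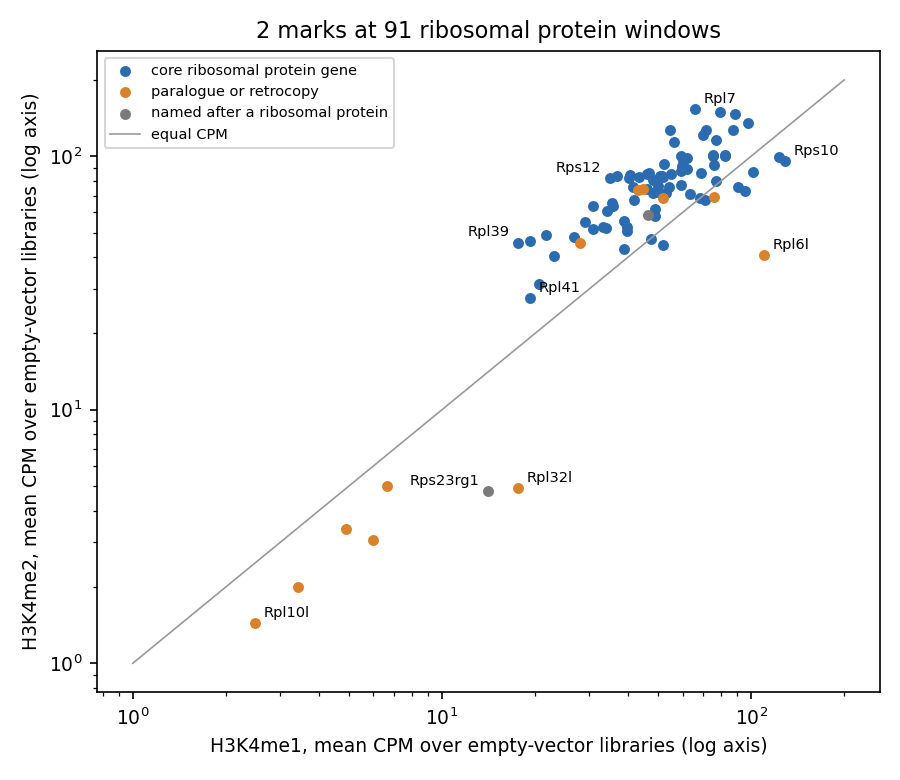
Mean CPM of H3K4me2 against H3K4me1 over the 3 empty-vector libraries of each mark, column totals, log axes, 1 point per gene. Most core genes lie above the line of equal CPM, Rpl6l and Rps10 below it, and Rpl10l at the bottom left.

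Other gene groups tied to growth and protein synthesis leaned to H3K4me2 as well, and differences between the groups were not tested. Of 16 genes that control growth and ribosomal protein synthesis (Myc, Mtor, Yy1 and others), 11 were higher in H3K4me2 and 1 lower, with a median of log2 0.60, where 21.1% of all windows were higher and 34% lower. Of 33 ribosome biogenesis genes (nucleolin, fibrillarin, Pol I subunits) 22 were higher in H3K4me2 and 0 lower, with a median of log2 0.63. Of 28 translation factor and related genes, Fau and Rack1 among them, 15 were higher and 1 lower (median 0.43), and of 78 mitochondrial ribosomal protein genes 48 were higher and 3 lower (median 0.48). Over IgG, where 36.1% of all windows were higher, H3K4me2 was higher at 15 of the 16 control genes and at 28 of 33, 27 of 28 and 61 of 78 of the others.

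Neither Snai1 construct moved a ribosomal protein window past the threshold when all libraries were used. The comparisons ask whether the marks that Lsd1 removes differ in cells with wild-type Snai1 or the form impaired in Lsd1 binding. In H3K4me2, the count of members past the threshold was 0 of 91 for wild type against empty vector (0.00388% of all windows passed), 0 for mutant against empty vector (0%) and 0 for wild type against mutant (0%). In H3K4me1 it was 0 of 91 in each, with 0% of all windows. DESeq2 also called 0 members in these 6 comparisons. Over all windows it called 88, 8 and 72 in H3K4me2 and 4, 0 and 32 in H3K4me1, in the same order. At an unadjusted p under 0.05 stood 6, 0 and 4 members in H3K4me2 (7.32%, 4.95% and 9.9% of all windows) and 1, 0 and 2 in H3K4me1 (2.88%, 1.61% and 5.24%). A difference of the construct effect between the marks (the interaction term in edgeR) passed at 0 of 91 members and 0% of all windows in each of the 3 comparisons, and at an unadjusted p under 0.05 at 0 members against 0.604%, 0.519% and 1.23% of all windows. The median standard error of a core window's log2 fold change was 0.12 in H3K4me2 and 0.17 to 0.19 in H3K4me1, and a window that did not pass is not shown to be equal between constructs. Wild type and mutant were compared with the same empty-vector libraries.

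The core medians were small. In H3K4me2 they were log2 0.06 for wild type against empty vector (-0.01 over all windows), -0.02 for mutant against empty vector (0.03) and 0.09 for wild type against mutant (-0.04). In H3K4me1 they were 0.05 (-0.02), -0.03 (-0.00) and 0.07 (-0.01). Over all 91 members the H3K4me2 median for wild type against empty vector was 0.05, and on column totals in place of TMM it was -0.02, so its sign depends on the scaling. The 33 ribosome biogenesis genes had H3K4me2 medians of 0.07, -0.02 and 0.11 in the same order, and 0 passed.

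The core medians had opposite signs in replicate 1 and in replicates 2 and 3. For wild type against mutant, the core H3K4me2 median was -0.12 within replicate 1, 0.20 within replicate 2 and 0.19 within replicate 3. For wild type against empty vector it was -0.03, 0.08 and 0.13, and for mutant against empty vector 0.08, -0.08 and -0.07. H3K4me1 went the same way, with -0.20, 0.31 and 0.19 for wild type against mutant. Only 15 of 77 core genes had the same sign within replicate 1 as within the mean of replicates 2 and 3 for wild type against mutant in H3K4me2. Within the mutant cells, replicate 1 was above replicates 2 and 3 in H3K4me2 at 75 of 77 core genes (median log2 0.34, with -0.07 over all windows), and in empty-vector cells at 64 of 77 (0.19). Wild-type cells did not show this, with 45 of 77 (0.05) in H3K4me2 and 18 of 77 (-0.09) in H3K4me1, where mutant and empty-vector cells had 66 and 56 of 77 (0.31 and 0.15).

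**Figure D3:**
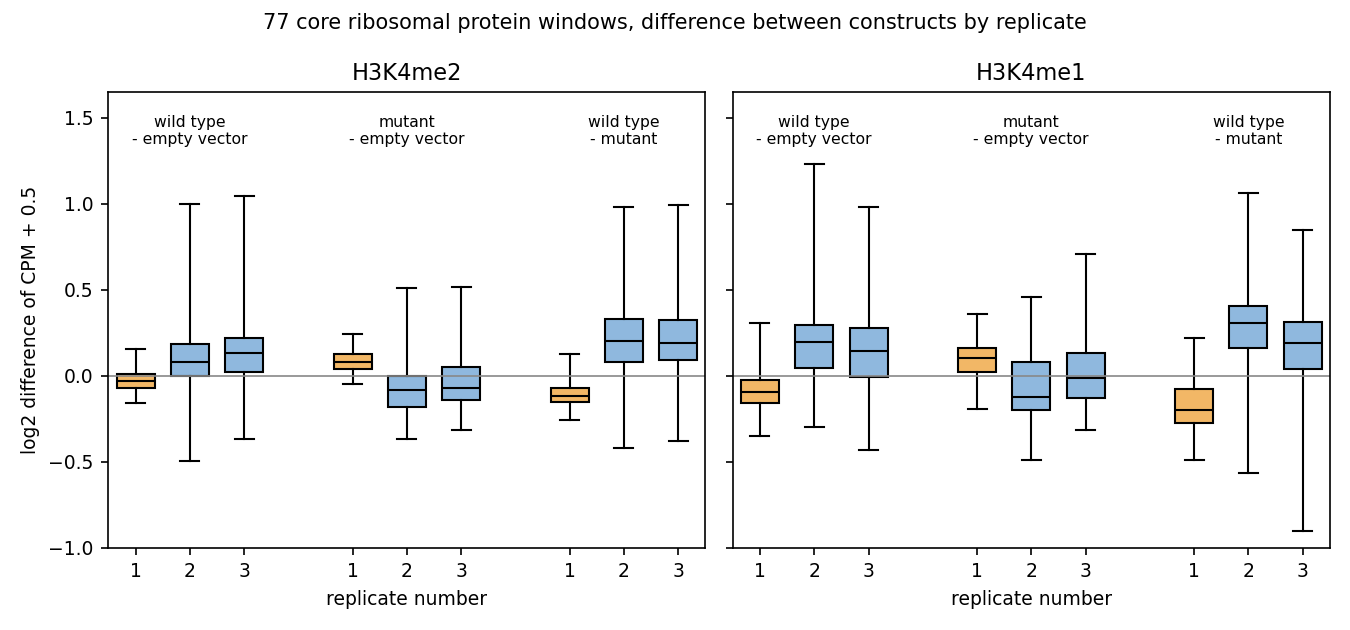
Log2 difference (CPM + 0.5) between constructs at the 77 core windows, within each replicate number, for H3K4me2 (left) and H3K4me1 (right). Boxes span the quartiles with the median as a line and whiskers reach the lowest and highest gene, and in each comparison the median of replicate 1 lies on the other side of 0 from those of replicates 2 and 3.

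With replicates 2 and 3 alone, a choice made after the data were seen, many members passed, as did many other windows. In H3K4me2, wild type was higher than empty vector at 20 members and lower at 3, where 14.3% and 9.25% of all windows were called. The mutant was higher at 7 and lower at 18 (15.7% and 17%). Wild type was higher than mutant at 54 and lower at 5 (29.9% and 28.4%). In H3K4me1 the counts were 26 and 2 for wild type against empty vector (15.9% and 12.8%), 5 and 3 for mutant against empty vector (11.3% and 12.8%), and 38 and 2 for wild type against mutant (21.7% and 17.7%). These groups hold 2 libraries each, or 1 sample for empty-vector H3K4me1, which is assumed to vary like the other groups. The spread these calls rest on is that between replicates 2 and 3, close to counting noise in H3K4me1, so the calls compare these libraries and say little about how constructs vary between cultures. With replicate 1 against replicates 2 and 3 as a batch term, 0 members passed in each of the 6 comparisons. Replicates 2 and 3 of each construct were summed in that fit, which left few samples and low power. The 0 therefore does not show that the constructs are equal. Of the 59 members called between wild type and mutant in H3K4me2, 6 had the same sign within replicate 1, and those called higher had a median log2 difference of 0.29 there and -0.10 within replicate 1.

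The members nearest the threshold show this library by library. Rpl36a, a large subunit protein at the tRNA exit site (chrX:134585654-134588062, with ends of Btk and Gla within 5 kb), gave 147.19, 93.3 and 97.06 TMM-scaled CPM of H3K4me2 in empty-vector replicates 1, 2 and 3. It gave 158.51, 187.23 and 200.78 in wild-type cells and 165.72, 94.66 and 100.44 in mutant cells. Every wild-type library was above every empty-vector library, but by log2 0.11 within replicate 1 and by 1.00 and 1.04 within replicates 2 and 3. Libraries of these 2 constructs did not overlap at 12.9% of all windows, and of the 91 members at 6 higher and 3 lower in wild type. The fitted difference at Rpl36a was 0.69 ± 0.22 (edgeR, adjusted p = 0.488), and against the mutant 0.60 ± 0.22 (adjusted p = 0.503). Without empty-vector replicate 1 the first became 0.94 (adjusted p = 0.026), and without mutant replicate 1 the second became 0.93 (adjusted p = 0.0232). In H3K4me1 the same gene gave 88.49, 37.86 and 43.06 CPM, 78.56, 89.71 and 85.51, and 95.13, 42.73 and 47.23, so replicate 1 was again high in all 3 constructs.

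The marked members on chromosome 12 shifted beside a shift of the chromosome's median. Rpl36al (chr12:69182734-69184067) gave 101.55, 60.47 and 56.31 CPM of H3K4me2 in empty-vector cells, 99, 110.76 and 110.76 in wild-type cells and 106.03, 81.05 and 82.03 in mutant cells (wild type against empty vector 0.55 ± 0.19, adjusted p = 0.519, edgeR). Rps7, a small subunit protein, gave 69.36, 42.44 and 43.66, then 68.47, 74.5 and 62.53, then 76.98, 54.52 and 57.81. Rps29 gave 46.43, 24.6 and 22.28, then 43.14, 43.37 and 41.18, then 46.18, 35.23 and 32.13. All 3 were lowest in empty-vector replicates 2 and 3, with mutant replicates 2 and 3 next, and their replicate 1 values differed little between constructs. The median of all chromosome 12 windows in replicates 2 and 3 was log2 0.32 higher in wild-type and 0.51 higher in mutant than in empty-vector cells, and within replicate 1 it was -0.00 and 0.01. Without empty-vector replicate 1, Rps7, Rps29 and Rpl36al passed for wild type against empty vector together with Rpl36a. These are 4 of 91 members, and 719 windows passed in all, where the main fit tested 25742. For mutant against empty vector Rpl36al alone of the members passed, and 407 windows passed in all.

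**Figure D4:**
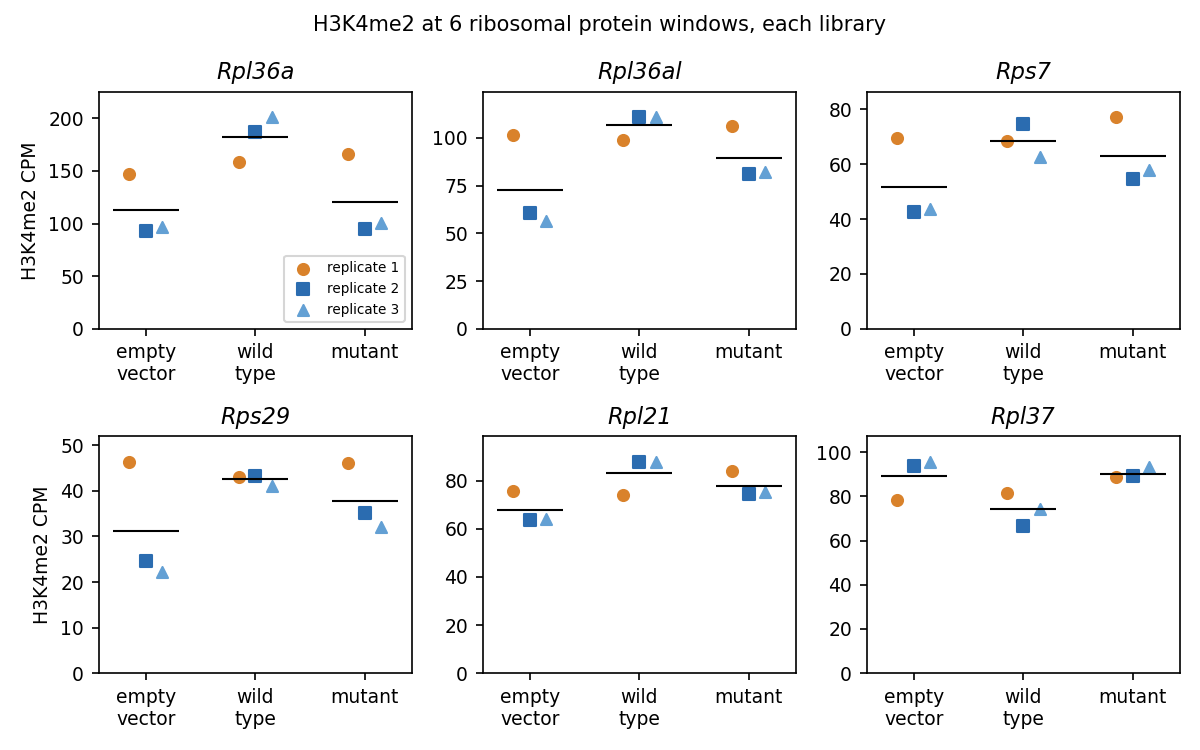
H3K4me2 CPM (TMM-scaled) of 6 members in each library, by construct, with a bar at the mean of the 3 replicates. Rpl36al, Rps7 and Rps29 are low in empty-vector replicates 2 and 3, and Rpl36a is high in wild-type replicates 2 and 3.

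Rpl21 gave 75.51, 63.7 and 63.92 CPM in empty-vector, 74.01, 87.82 and 87.87 in wild-type and 84.14, 74.24 and 75.21 in mutant cells (0.29 ± 0.11, adjusted p = 0.549, for wild type against empty vector). Rpl37 had the lowest core log2 fold change for wild type against either other construct, with 78.4, 93.89 and 95.72, 81.54, 66.52 and 74.18, and 88.8, 89.06 and 93.16 CPM (against the mutant -0.28 ± 0.11, adjusted p = 0.503). Wild-type and mutant libraries do not overlap at Rpl37, and wild-type and empty-vector libraries do. Wild-type and mutant H3K4me2 libraries did not overlap at 9.22% of all windows, and of the 91 members at 2 higher and 3 lower in wild type. Rps4l had -0.89 ± 0.32 for wild type against empty vector (adjusted p = 0.526) at 1.09 to 4.61 CPM. In H3K4me1, Rpl13 on chromosome 8 gave 53.13, 41.44 and 35.47 CPM in wild-type and 72.23, 61.66 and 66.6 in mutant cells (-0.62 ± 0.19, adjusted p = 0.847). The median of chromosome 8 windows in that comparison was -0.30. Rpl3l on chromosome 17 had 0.35 ± 0.15 (adjusted p = 0.917), where the chromosome's median was 0.13, and in H3K4me2 0.32 ± 0.13 (adjusted p = 0.503). The part of the chromosome shifts in these values was not tested.

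The other members nearest the threshold are given by their values, since none passed. For mutant against empty vector in H3K4me2 they were Rpl39l (-0.49 ± 0.26), Rpl21 (0.20 ± 0.11), Rpl18 (-0.19 ± 0.11) and Rpl36al (0.30 ± 0.19), each with an adjusted p of 0.952 (edgeR). For wild type against mutant, Rpl14, a large subunit protein, had 0.24 ± 0.11 (adjusted p = 0.503). In H3K4me1, wild type against empty vector gave Rps4l -1.03 ± 0.35, Rpl13 -0.41 ± 0.21, Rps7 0.37 ± 0.21 and Rpl36al 0.41 ± 0.26. Mutant against empty vector gave Rps4l -0.55 ± 0.34, Rps7 0.33 ± 0.21, Rpl7l1 0.28 ± 0.18 and Rps27rt -0.38 ± 0.34, all with an adjusted p of 1. Wild type against mutant gave Rps10 0.36 ± 0.20 and Rpl37 -0.27 ± 0.16 after Rpl13 and Rpl3l.

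Without mutant replicate 1, 19 of 91 members passed for wild type against mutant in H3K4me2. Over all windows 4289 passed, where the main fit tested 25742. Many other windows passed with them, so no member is named from this count.

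Snai1 peaks were frequent at ribosomal protein genes in the mutant list. The deposited lists give each peak's fold enrichment over local background as the authors' value, with 1 list per construct and therefore no replicate check, so differences between lists are untested. A peak lay within 5 kb of either end of 64 of 91 genes in the mutant list (70.3%, exact 95% interval 59.8 to 79.5%), where 28.4% of all 25169 genes had one. In the wild-type list it was 11 of 91 (12.1%, 6.2 to 20.6%), where 7.8% of all had one, and in the empty-vector list 2 of 91, where 0.493% had one. The intervals cover counting error only. Core genes had a mutant peak in 75.3% (58 of 77) and mitochondrial ribosomal protein genes in 73.1% (57 of 78). Over all genes whose window had H3K4me2 above IgG the share was 57.5%, and over those below it 7.17%. For the wild-type list the shares were 13% (core), 14.1% (mitochondrial), 16.4% and 1.85%. The lists differ in length, with 12037 mutant and 2929 wild-type peaks.

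**Figure D5:**
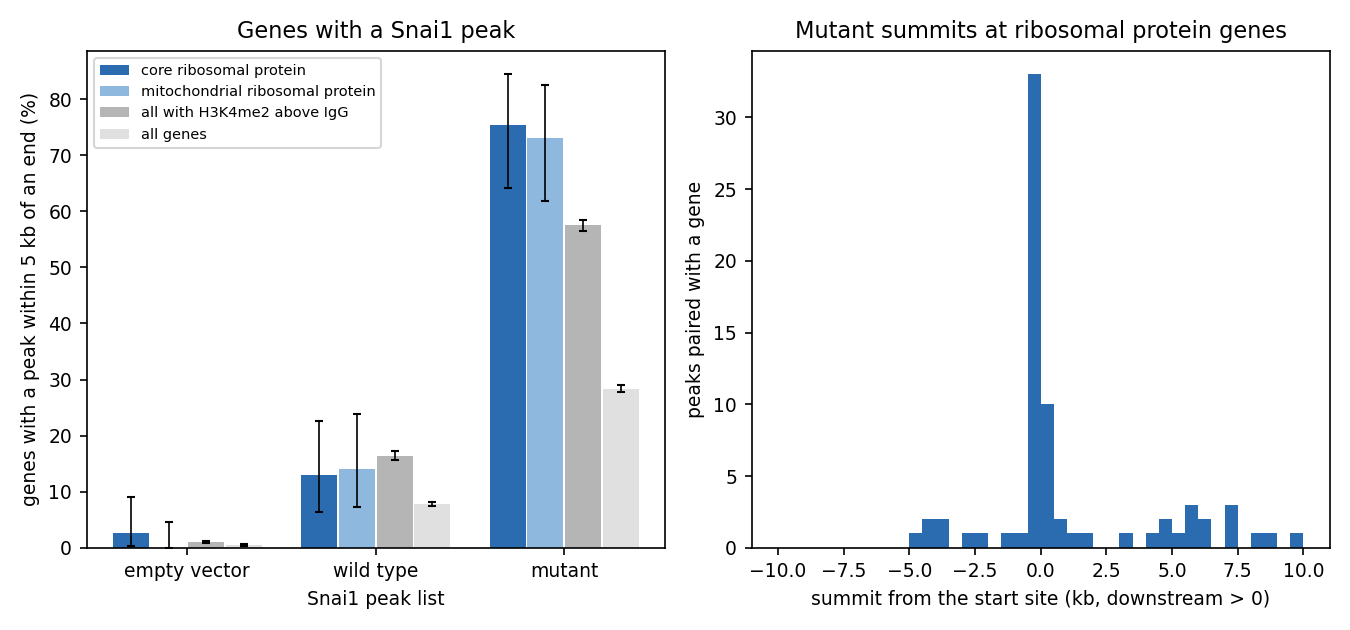
Left, share of genes with a Snai1 peak within 5 kb of an end in each list, with exact 95% intervals. Right, distance of 72 mutant summits from the annotated start, with the highest bin just upstream of the start.

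The mutant summits' distances from the start ranged widely. Of 72 pairs of a mutant summit and a member with a known start, 39 lay within 250 bases of it and 46 within 1 kb (median distance 172.5 bases). A mutant summit fell inside the 300-base promoter of 52.6% of core genes (30 of 57), against 12.8% of all genes. The E-box letters CAGGTG stood in 8.82% of the members' promoters with such a summit (3 of 34) and in 26.3% of all promoters with one (621 of 2365), and CCGGAAG in 41.2% and 34.6%. The 3 promoters printed next carry strong mutant summits, Rpl41 a wild-type summit also. Capitals mark CCGGAAG and CAGGTG on either strand, and the annotated start opens the last 20 letters.
Rpl41: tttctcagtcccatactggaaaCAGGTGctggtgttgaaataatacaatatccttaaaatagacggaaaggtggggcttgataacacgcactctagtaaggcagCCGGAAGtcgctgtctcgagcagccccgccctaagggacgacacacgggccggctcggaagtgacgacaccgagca
Rpl37: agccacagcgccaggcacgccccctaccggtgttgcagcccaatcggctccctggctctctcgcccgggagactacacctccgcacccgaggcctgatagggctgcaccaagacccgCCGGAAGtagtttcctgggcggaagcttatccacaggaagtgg
Rps18: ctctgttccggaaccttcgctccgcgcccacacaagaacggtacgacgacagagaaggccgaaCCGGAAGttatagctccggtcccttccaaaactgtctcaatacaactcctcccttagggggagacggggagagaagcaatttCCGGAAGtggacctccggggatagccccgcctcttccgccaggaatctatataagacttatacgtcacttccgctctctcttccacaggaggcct
They lie at chr10:128549149-128549328 (minus strand), chr15:5116473-5116632 (plus) and chr17:33955646-33955885 (minus). With positions counted in bases from the start and negative before it, the mutant summit at Rpl41 was at -137 and the wild-type summit at -94, with 9.38-fold and 6.71-fold enrichment in the authors' lists. At Rpl37 the mutant summit was at -98 (10.21-fold), and at Rps18 at -183 (10.73-fold), with no wild-type peak at either.

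Peak heights ranged from 3.21-fold to 18.91-fold over the 64 genes with a mutant peak (median of the highest per gene 6.03, against 5.54 over all mutant peaks). The highest stood at Rpl4, a protein lining the exit tunnel (18.91-fold, 207 bases past the start), then at Rplp2 (13.71-fold, 3337 bases from the gene and near Pnpla2), Rpl8 (11.96-fold), Rps18, and Rpl13a (10.4-fold). The 19 core genes with no mutant peak within 5 kb include Rpl7, which had the highest H3K4me2, Rpl39, Rps23, Rplp0, Rpl3 and Rps4x. Of the disease genes, Rpl5 (6.02-fold, at -29), Rpl11 (5.77-fold, at -87), Rps19 (5.28-fold, at -125), Rps26 (7-fold, at -323), Rpl22 (7.58-fold, at 82) and Rpl35a (4.77-fold, at 162, and 5.27-fold, at 585) had one near the start. Rps14 had one overlapping the gene (4.96-fold), the Rps24 summit was at -3558 (5.83-fold), and Rpl10 had none within 5 kb. The 6 paralogues and others with a mutant peak were Rpl22l1, Rpl3l, Rpl6l, Rpl7l1, Rps19bp1 and Rps27l, and none of the 7 unmarked members had one.

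Genes with a wild-type peak included Rpl13a, Rpl14, Rpl21, Rpl4, Rpl41, Rpl6l, Rplp2, Rps21 and Rps28. Among the 9 pairs of a summit and a known start, 3 lay within 250 bases, at Rpl41, Rpl4 (231 bases past it, 6.08-fold) and Rps28 (70 past it, 5.29-fold). Rps21, a small subunit protein, had the highest fold, 16.51 at -631 and near Cables2 and Mir3091, where the overlapping mutant peak reached 6.95. At Rpl4 the order was the other way, with 6.08-fold in the wild-type and 18.91-fold in the mutant list. Folds of separate lists depend on each list's depth and background, which were not analysed here. The 2 empty-vector peaks beside Rpl13a (7.93-fold and 10.07-fold) were present without a Snai1 transgene, and mutant peaks overlap both (10.4-fold and 9.03-fold). At the members with a wild-type peak, 0 of 11 windows passed in either mark for wild type against empty vector, as for all members.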

How the data were processed

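Counts of reads in a window around each RefSeq start site, for 20 libraries, and Snai1 peaks as 1 list per construct were deposited by the authors. The submitters' processing notes name Subread, featureCounts and MACS2 with GRCm38 (mm10). Per the deposited peak lists' format, each peak has a score, a fold enrichment (ratio), a −log10 q and a summit position (other). Whether the technical replicates were pooled and the inputs used as control is not given in the sources used here. The members and gene lists were chosen with earlier results of these data known.

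Of 27095 gene IDs, 25204 matched a RefSeq symbol. Windows that repeated an earlier window's counts (31) or held no read (20) were dropped, which left 27044. Constructs were compared within a mark with edgeR 4.0.16 (R 4.3.3), TMM scaling, filterByExpr and a quasi-likelihood test over all windows, Benjamini-Hochberg adjustment and a threshold of 0.05. Comparisons between marks, or with IgG, used column totals. DESeq2 1.42.0 was an alternative. Within-replicate differences used log2(CPM + 0.5). Peaks were counted within 5 kb of either gene end, and lists overlapped by at least 1 base. Python 3.11.15 with pandas 2.3.3, scipy 1.17.1 and matplotlib 3.10.9 did the rest. The fits were run on simulated counts with planted changes and no batch, which checks the code but not the spread of these libraries.

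Members named with values were those nearest the threshold in each comparison (the 4 smallest p where fewer than 4 passed), the 5 highest and 5 lowest in empty-vector H3K4me2, the extra copies, genes of anaemia and leukaemia, members with a wild-type peak, the 5 highest mutant peaks and the 3 largest differences between marks in each direction. Some genes that this rule names are not reported here. The further lowest core genes and printed sequences were chosen after their values were seen. Deposited counts in windows ranged from 2714255 to 18199945 per library.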

Additional observations from a re-analysis of the deposited data

How the results depend on the processing

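No value that had passed a test changed sign. Of the alternatives to a count or median, 356 were counted as unchanged, 8 as moved and 10 as stronger. Unchanged meant that a value kept its side of the threshold or moved by less than the spread. For peak counts it meant a change within a set ratio. Counts of 0 and medians near 0 were less stable, as follows. The H3K4me2 median for wild type over empty vector was -0.018 on column totals, against 0.049. All 24 named log2 fold changes between constructs kept their sign under every alternative run for them. They were picked by their p in these same libraries, which the alternatives reuse, so this is no independent check. Within replicate 1 alone, H3K4me2 for wild type against empty vector had the opposite sign at Rpl36al and Rpl21, and the same sign at Rpl36a and Rps4l. With the olfactory and vomeronasal receptor windows as the scale, the members' H3K4me2 medians were 0.179 for wild type over empty vector, -0.135 for the mutant over empty vector and 0.328 between wild type and mutant, beside 0.121, -0.126 and 0.248 over all windows. Leaving out 1 library gave 0 to 4 passing members for the first comparison (4 without empty-vector replicate 1), 0 to 1 for the second (1 without empty-vector replicate 1) and 0 to 19 for the third (19 without mutant replicate 1). The second median then ranged from -0.177 (without mutant replicate 1) to 0.037 (without empty-vector replicate 1), and was also above 0 without mutant replicate 2 (0.031) or 3 (0.024). In H3K4me1 the same 3 omissions gave 0.049, 0.041 and 0.014 against -0.025. With replicates 2 and 3 alone, chosen after seeing the data, 23, 25 and 59 members passed in H3K4me2 and 28, 8 and 40 in H3K4me1. The difference between marks for wild type against mutant then passed at 2 members. The causes were not tested. Genes with a wild-type peak fell from 11 to 6 within 1 kb, 5 within 5 kb of the start alone and 3 at a −log10 q of at least 10, and genes with a mutant peak from 64 to 37 at that limit. For the comparisons with IgG and between marks, the ranges count higher and lower members together. H3K4me2 against IgG ranged from 87 to 91 (84 higher and 7 lower in the main fit). H3K4me1 against IgG ranged from 51 to 85 (57 and 6), and between marks the range was 55 to 82 (58 and 7). With the replicate number as a replicate block, 0 members passed in the 6 construct comparisons, which does not show the constructs to be equal. The H3K4me2 medians were then 0.052, -0.026 and 0.104. Same-numbered libraries deviated together with r from -0.22 to 0.38 in H3K4me2 and -0.05 to 0.59 in H3K4me1. Not every pair was over 0.1, so the number was not used to pair libraries, although the replicate 1 libraries of the constructs resemble each other. Peak lists carry no depth.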
